A study of Mus musculus with 8 samples.

Results

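The enzymes of purine and pyrimidine nucleotide metabolism were followed in mouse CD8+ T cells through 38 named genes, of 49490 genes listed for the first experiment and 55291 for the second. The genes were chosen by name for their role, with earlier results of these data known. All 38 were listed in both experiments, and all 38 reached a value of at least 10 in 2 or more libraries of each. They fall into 14 enzymes of de novo synthesis, 11 of salvage, 2 that make the shared precursor PRPP, 5 of deoxynucleotide and thymidylate synthesis, 4 nucleotide kinases and 2 enzymes of breakdown.

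The study sequenced polyA RNA of CD8+ T cells from spleens and lymph nodes of mice in 2 separate experiments. In the first, Trim28-/- cells activated in vitro (knockout) were compared with activated Trim28fl/fl cells (control), in which the floxed gene is intact. In the second, cells stimulated for 3 days by antibodies to CD3 and CD28 were compared with an antibody against IL-2 (blocked) and without it (untreated), and both groups of this experiment are labelled WT. All 4 groups therefore hold stimulated CD8+ T cells, each in 2 libraries. How Trim28 was deleted, the duration and agents of activation in the first experiment, and the age of the mice are not given in the sources used here. The labels do not say whether the 2 libraries of a group came from separate mice or cultures, so the p-values rest on a spread between libraries that may in part or in full be technical. The blocked libraries carry no number in the table and are called A and B.

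Values are read counts that the authors divided by a size factor for each library, called scaled read counts below. The read total recovered per library was 13398371 and 13469789 in the knockout, 13254136 and 13222831 in the control, 17042931 and 17069569 in blocked cells, and 16653962 and 16618750 in untreated cells. Trim28 stood at 415 and 458 in knockout libraries, against 4262 and 4323 in control libraries (log2 fold change -3.30), and rose with blockade (log2 fold change 0.49, adjusted p = 1.01e-07). Il2ra, the IL-2 receptor alpha chain, had a log2 fold change of -0.15 in the knockout and -1.01 with blockade (adjusted p = 0.0033 and 1.8e-12). The log2 fold change of Il2 was -0.80 in the knockout and 0.11 with blockade (adjusted p = 1.29e-05 and 0.0731). The CD8 T cell marker list (Cd8a, Cd8b1, Cd3e, Cd3d, Cd3g, Cd2 and Lck) had 7 of 7 genes detected in every group, with a summed scaled count of 23870.2 to 24299 in knockout, 24704 to 25345 in control, 30319 to 31421 in blocked and 41806 to 42161 in untreated libraries. In the knockout Cd8a (log2 fold change 0.25), Cd3e (0.35) and Lck (0.12) rose, and Cd8b1 (-0.48), Cd2 (-0.61) and Cd3g (-0.10) fell. With blockade 6 of the 7 fell, Cd2 the most (-1.81). The summed myeloid markers ranged between 142 and 152 in knockout, 247 and 289.9 in control, 85.4 and 87.8 in blocked, and 345 and 354 in untreated libraries. Cd68 held most of this sum and fell in both comparisons (log2 fold change -0.76 and -2.25), and no other gene of the list was called. Lyz2 stood at 5.73 and 6.71 in blocked libraries, against 2.08 and 4.12 in untreated libraries. Adgre1 was listed at 0 in all 4 libraries of the first experiment and Fcgr1 in all 4 of the second. The B cell markers summed to 7.84 to 13.8 in knockout, 35.5 to 36.5 in control, 51.5 to 52.7 in blocked and 36.0 to 45.7 in untreated libraries, with Ms4a1 at 0 in every library but the blocked ones. CD4 T cell markers summed to 153 to 169.6 in knockout, 504 to 524 in control, 557 to 586 in blocked and 496 to 569.5 in untreated libraries, with Cd4 itself at most 9.55. The members of this list went opposite ways, since in the knockout Cd40lg (log2 fold change -2.95) and Zbtb7b (-1.27) fell and Foxp3 (3.09) rose, and with blockade Cd40lg (0.49) rose and Zbtb7b (-0.51) and Foxp3 (-2.45) fell. NK cell markers summed to 245 to 272 in knockout, 175 to 209 in control, 165 to 173 in blocked and 395 to 406 in untreated libraries, with Ncr1 at 0 in all 8. Eomes held most of this sum and rose in the knockout (log2 fold change 0.60), where Klre1 fell (-2.76), and both fell with blockade (-1.14 and -2.97). Erythroid and stromal markers summed to 573 to 607 in knockout, 297 to 434 in control, 1073 to 1115 in blocked and 539 to 566 in untreated libraries. Pecam1 held most of this sum and rose in both comparisons (log2 fold change 0.93 and 1.03). Col1a1 held most of the rest, and the erythroid genes (globins and Alas2) stayed under 10 in every library. The part of these differences in the results was not tested. In bulk RNA, a change in the number of cells of a type cannot be told apart from a change in RNA per cell. Nor can it be told apart from a change of the same genes within the CD8+ T cells themselves.

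Cells build purines and pyrimidines from amino acids and PRPP by the de novo routes, or recover them from free bases and nucleosides by salvage. A dividing T cell needs both RNA and DNA precursors, and ribonucleotide reductase turns the ribonucleotides into deoxynucleotides for DNA replication. The transcription factor MYC is known to act at many genes of nucleotide synthesis, E2F factors act at genes needed in S phase, and STAT5 carries the IL-2 signal to the nucleus.

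Promoter sequences of 4 members are shown, chosen because their windows hold a match to a motif searched. Atic and Tyms rose in both comparisons, while Ppat and Paics lie head to head and moved apart in the knockout. Of 36 members with a window, 25 held no match to any of the 4 motifs searched, among them Upp1, Cad, Gart, Rrm2 and Adk. Each window runs 250 bases before to 50 bases after the annotated start in RefSeq on GRCm38.p6 and is printed 5′ to 3′ on the strand of its gene. Capitals mark a match to CACGTG (the E-box bound by MYC with MAX), to TTTCCCGC (an E2F-type motif, here on the opposite strand as GCGGGAAA) or to TTCNNNGAA (a STAT5-type motif).
Atic, chr1:71556906-71557205, plus strand: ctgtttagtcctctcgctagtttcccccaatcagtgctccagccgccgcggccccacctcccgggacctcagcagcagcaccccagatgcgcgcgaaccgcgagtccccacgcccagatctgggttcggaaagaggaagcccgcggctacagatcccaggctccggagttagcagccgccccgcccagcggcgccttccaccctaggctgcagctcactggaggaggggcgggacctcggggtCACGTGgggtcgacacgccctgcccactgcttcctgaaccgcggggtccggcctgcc
Tyms, chr5:30073576-30073875, minus strand: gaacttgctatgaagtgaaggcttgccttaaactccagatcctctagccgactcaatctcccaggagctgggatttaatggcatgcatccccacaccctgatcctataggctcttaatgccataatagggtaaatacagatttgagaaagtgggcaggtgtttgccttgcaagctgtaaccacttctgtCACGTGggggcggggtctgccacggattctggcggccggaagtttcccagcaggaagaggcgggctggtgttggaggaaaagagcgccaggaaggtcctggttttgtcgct
Paics, chr5:76951052-76951351, plus strand: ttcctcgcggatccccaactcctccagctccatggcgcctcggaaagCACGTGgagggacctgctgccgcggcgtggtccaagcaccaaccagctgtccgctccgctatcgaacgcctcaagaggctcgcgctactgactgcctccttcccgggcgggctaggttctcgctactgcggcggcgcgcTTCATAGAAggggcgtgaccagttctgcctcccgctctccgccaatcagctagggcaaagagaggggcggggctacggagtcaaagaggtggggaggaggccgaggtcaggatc
Ppat, chr5:76951529-76951828, minus strand: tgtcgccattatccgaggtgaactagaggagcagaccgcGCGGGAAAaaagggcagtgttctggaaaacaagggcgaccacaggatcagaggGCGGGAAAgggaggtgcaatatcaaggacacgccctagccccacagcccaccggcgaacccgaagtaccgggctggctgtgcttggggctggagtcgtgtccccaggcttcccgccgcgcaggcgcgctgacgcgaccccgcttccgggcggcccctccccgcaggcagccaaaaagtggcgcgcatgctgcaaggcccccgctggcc

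The E-box began at position -7 relative to the start of Atic, -61 for Tyms and -203 for Paics. The TTCNNNGAA match of Paics began at -64, and the E2F-type matches of Ppat at -211 and -158. No window was at hand for Pfas and Dhodh. On either strand, CACGTG was found in 6 of 36 members, or 16.7%, against 8.09% of 27025 genes with a window. These 6 were Paics, Atic, Impdh2, Tyms, Dtymk and Nme1, so 3 of 8 purine de novo genes held it, 0 of 4 pyrimidine de novo genes, 2 of 5 deoxynucleotide and thymidylate genes, 1 of 4 nucleotide kinases and 0 of 8 genes of base and nucleoside salvage. TTTCCCGC was found in 2 of 36 members (Ppat and Prps2), or 5.56%, against 1.24% of genes, and a further E2F-type motif, TTTGGCGC, in 0 of 36, against 0.585% of genes. TTCNNNGAA was found in Paics, Adsl, Ada and Samhd1, 11.1% of members, against 9.55% of genes. These are matches of letters in a window, and no binding was measured.

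In the Trim28 knockout, most of the 38 genes stood higher than in the control. At an adjusted p under 0.05, 28 of 38 rose, 5 fell and 5 did not pass, while 32.9% of all 15415 genes tested rose and 28.2% fell. With IL-2 blockade, 26 of 38 rose, 5 fell and 7 did not pass, while 31.4% of all 13978 genes tested rose and 28.9% fell. The median log2 fold change of the members was 0.33 in the knockout, against 0.03 over all genes tested, and 0.43 with blockade, against 0.02 over all genes tested. Calls are from limma on log2 (scaled read count + 1) with Benjamini-Hochberg adjustment over all genes tested, a scale that understates the change of weakly expressed genes. A value given as the size of a rise or fall, or alone in parentheses after a gene, is a log2 fold change on this scale, and paired library values are scaled read counts. In either direction, 61.0% of all genes tested were called in the knockout and 60.3% with blockade. The values of the 2 groups did not overlap for 36 of 38 members in the knockout experiment, against 82.3% of all genes tested, and for 34 of 38 in the blockade experiment, against 79.3%. When 1 library was left out, 9 of the 33 calls in the knockout and 3 of the 31 with blockade were lost in at least 1 of the 4 refits. Such a refit leaves 1 library in a group, which is then assumed to vary like the other group, so a call lost there is no measure of that gene's own spread. Without the filter on low values, the calls of Impdh1, Ctps2, Aprt, Prps2 and Nme2 in the knockout (adjusted p between 0.0539 and 0.163) and of Impdh1, Impdh2, Hprt and Uckl1 with blockade (between 0.0569 and 0.0877) were lost. The authors' deposited table, from DESeq2, listed 27 of the members as higher and 5 as lower in the knockout, and 26 as higher and 5 as lower with blockade, at its own adjusted p under 0.05.

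**Figure D1:**
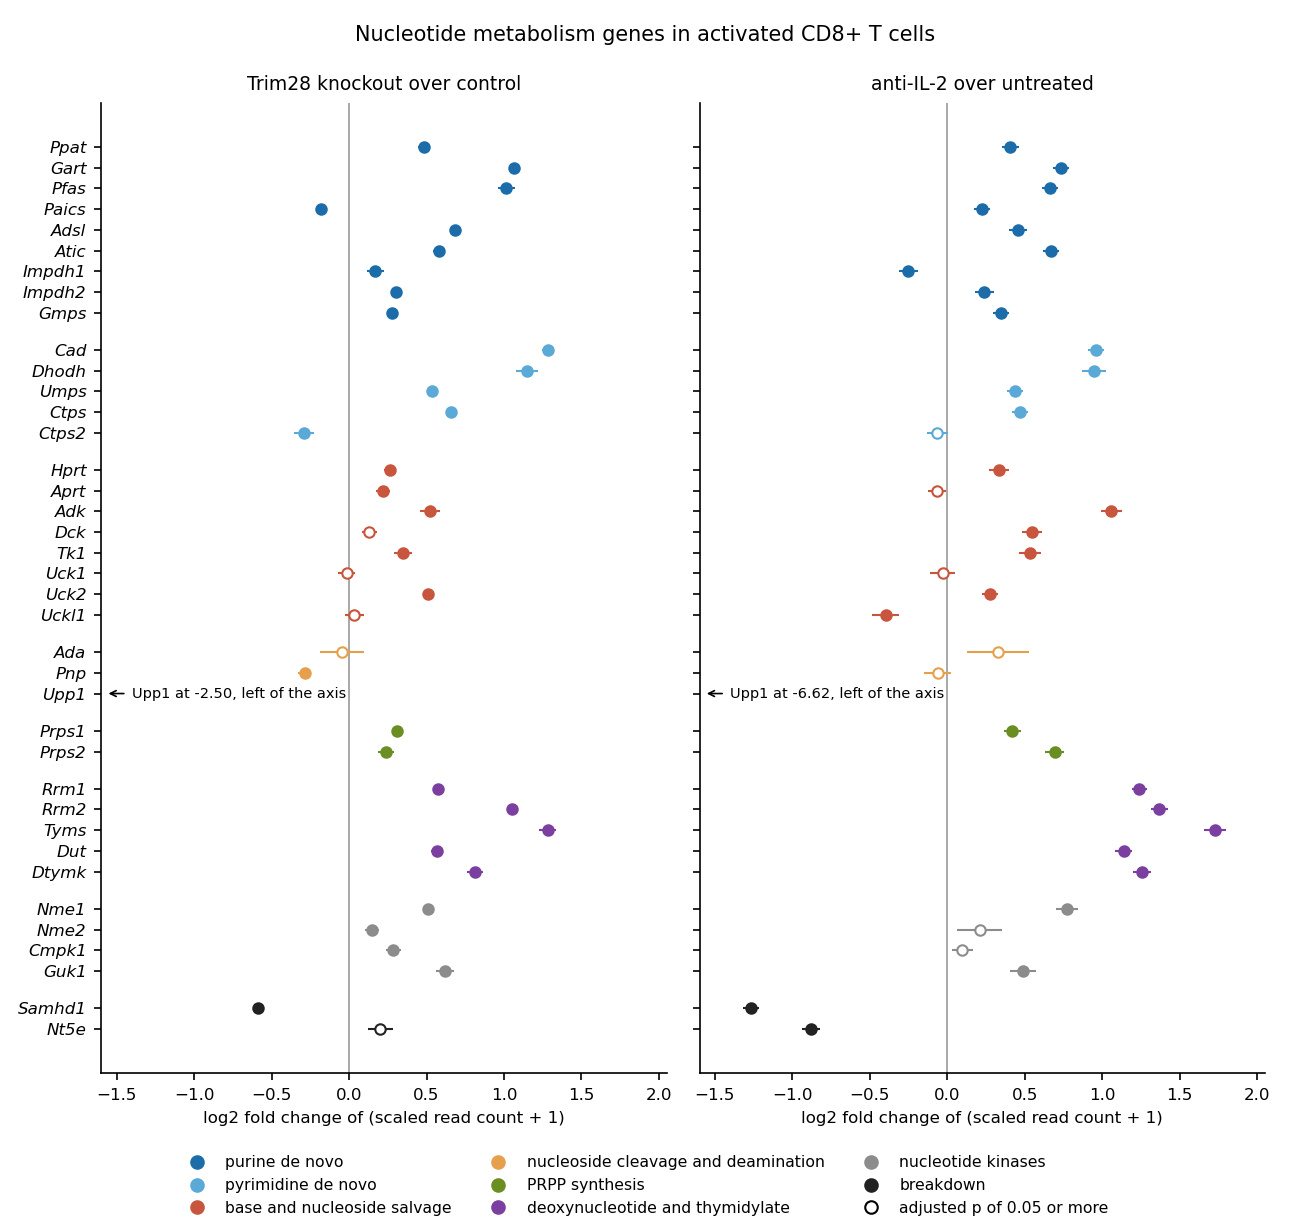
Log2 fold change of scaled read count + 1 (x axis) for each of the 38 genes (y axis, ordered by role), for knockout over control on the left and anti-IL-2 over untreated on the right. Points are limma estimates, bars are 1 standard error, 2 libraries a group, and open points did not pass an adjusted p under 0.05; Upp1 lies left of both axes at -2.50 and -6.62, and the 5 deoxynucleotide and thymidylate genes lie right of 0 in both panels.

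In the purine de novo route, 8 of 9 genes rose in the knockout and 1 fell, with a median log2 fold change of 0.48. Gart, a single protein that catalyses 3 steps of the route, had a scaled read count of 2877 and 2748 in knockout libraries, against 1352 and 1334 in control libraries (log2 fold change 1.07, SE 0.036, adjusted p = 1.29e-05). Pfas, the synthase that adds nitrogen to the forming ring, had 1819.8 and 1695 in knockout libraries, against 839.8 and 897 in control libraries (log2 fold change 1.02, SE 0.052, adjusted p = 4.11e-05). These were 2.09-fold and 2.02-fold higher levels, with no overlap between groups. The log2 fold change was 0.68 for Adsl, the lyase used at a pair of steps, 0.58 for Atic, which closes the purine ring, and 0.48 for Ppat, the committing enzyme. Of the genes that turn IMP into GMP, Impdh2 (the IMP dehydrogenase isoform induced in dividing lymphocytes) rose by 0.30 and Gmps (GMP synthetase) by 0.28.

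Paics, whose product joins CO2 and aspartate to the forming ring, went the other way in the knockout. It had 2669 and 2707 in knockout libraries, against 3011 and 3087 in control libraries (log2 fold change -0.18, SE 0.029, adjusted p = 0.00284). Its neighbour Ppat had 2441 and 2370.4 in knockout libraries, against 1692 and 1755 in control libraries (log2 fold change 0.48, SE 0.035, adjusted p = 0.000132). The ratio of Ppat to Paics counts, not corrected for length, was 0.915 and 0.876 in knockout libraries, against 0.562 and 0.568 in control libraries. Ppat lies at chr5:76913249-76951578 on the minus strand and Paics at chr5:76951307-76967509 on the plus strand of GRCm38, and 272 exon bases belong to both. Whether the authors' counting used strand is not given in the sources used here, so reads from those bases could be assigned to either gene. Without knockout replicate 1 the fall of Paics missed the threshold (log2 fold change -0.17, adjusted p = 0.0502).

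With IL-2 blockade 8 of the 9 purine de novo genes rose and 1 fell, with a median log2 fold change of 0.41. Gart had 4019 and 4231 in blocked libraries, against 2466 and 2496 in untreated libraries (log2 fold change 0.73, SE 0.052, adjusted p = 4.29e-10). Atic had 4752 and 4956 in blocked libraries, against 3138 and 2959.9 in untreated libraries (log2 fold change 0.67, SE 0.052, adjusted p = 1.71e-09), and Pfas had a log2 fold change of 0.66. Smaller increases were found for Adsl (0.46), Ppat (0.41), Gmps (0.34), Impdh2 (0.24) and Paics (0.22). The calls of Paics and Impdh2 were lost without untreated replicate 2, at an adjusted p of 0.0827 and 0.0761.

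Impdh1, the other IMP dehydrogenase isoform, was the purine de novo gene that fell with blockade. It had 1041 and 1139 in blocked libraries, against 1313 and 1281 in untreated libraries (log2 fold change -0.25, SE 0.063, adjusted p = 0.00203). In the knockout it had 851 and 887 in knockout libraries, against 739 and 806 in control libraries (log2 fold change 0.17, SE 0.055, adjusted p = 0.0373). That increase was not called by edgeR (adjusted p = 0.063), by DESeq2 (0.371), under upper-quartile scaling (0.186), without knockout replicate 1 (0.149) or 2 (0.246), or without control replicate 1 (0.164), and the decrease with blockade was not called without untreated replicate 1 (0.0641). The ratio of Impdh2 to Impdh1 counts was 1.40 and 1.39 in blocked libraries, against 0.998 and 0.988 in untreated libraries.

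The pyrimidine de novo route held the largest increases of the de novo genes in the knockout. Cad, the protein that carries the opening 3 enzyme activities of the route, had 2983 and 2872 in knockout libraries, against 1171 and 1233 in control libraries (log2 fold change 1.28, SE 0.040, adjusted p = 1.02e-05). Dhodh, the mitochondrial dehydrogenase of the next step, had 276 and 288 in knockout libraries, against 129.8 and 124 in control libraries (log2 fold change 1.15, SE 0.069, adjusted p = 6.88e-05). These are 2.43-fold and 2.22-fold higher levels. Umps, which completes UMP, rose by 0.53, so 4 of 5 pyrimidine genes rose and 1 fell, with a median of 0.66.

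The 2 CTP synthases moved apart in the knockout. Ctps had 1947 and 1970.4 in knockout libraries, against 1244 and 1239 in control libraries (log2 fold change 0.66, SE 0.031, adjusted p = 3.18e-05). Ctps2 had 379 and 419.6 in knockout libraries, against 492 and 485 in control libraries (log2 fold change -0.29, SE 0.063, adjusted p = 0.00883). The ratio of Ctps to Ctps2 counts was 5.14 and 4.70 in knockout libraries, against 2.53 and 2.56 in control libraries. The decrease of Ctps2 was not called by DESeq2 (adjusted p = 0.0625), nor without knockout replicate 1 (0.0528), control replicate 1 (0.0713) or control replicate 2 (0.0599).

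Cad and Dhodh also rose with blockade. Cad had 6369 and 6749 in blocked libraries, against 3284 and 3445 in untreated libraries (log2 fold change 0.96, SE 0.052, adjusted p = 7.06e-12), and Dhodh had 628 and 634 in blocked libraries, against 319 and 335 in untreated libraries (log2 fold change 0.95, SE 0.079, adjusted p = 4.92e-09). Umps rose by 0.44 and Ctps by 0.47. Ctps2 was not called (log2 fold change -0.064, SE 0.066, adjusted p = 0.425), with 926 and 867 in blocked libraries, against 964 and 909 in untreated libraries, and its groups overlapped.

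Myc and its partners were read beside the de novo genes. Of 13 genes named, 11 could be tested in each experiment. In the knockout 2 rose (18.2%) and 6 fell (54.5%), against 32.9% and 28.2% of all genes tested. With blockade 0 rose and 7 fell (63.6%), against 31.4% and 28.9% of all genes tested. Myc itself had 15652 and 15298 in knockout libraries, against 15441 and 15894 in control libraries (log2 fold change -0.018, adjusted p = 0.575). Myc had 19498 and 21057 in blocked libraries, against 35198 and 35265 in untreated libraries (log2 fold change -0.80, SE 0.052, adjusted p = 1.24e-10). Max, the partner through which MYC binds DNA, rose in the knockout (0.29), and the MYC antagonists Mxd1 (-0.63) and Mxi1 (-0.59) and the related Mga (-0.54) fell. With blockade Mxd1 (-1.35), Mxd4 (-1.14) and Mxi1 (-0.90) fell. The part of MYC and its antagonists in the de novo values was not tested.

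Of the 11 salvage genes, 5 rose in the knockout (45.5%), 2 fell (18.2%) and 4 did not pass, with a median log2 fold change of 0.13. Of all genes tested there, 32.9% rose and 28.2% fell. With blockade also 5 salvage genes rose, 2 fell and 4 did not pass, with a median of 0.27, against 31.4% and 28.9% of all genes tested. Within salvage, the enzymes that attach phosphate or ribose phosphate (8 genes) held all 5 increases in each comparison, and the enzymes that cleave or deaminate nucleosides (Ada, Pnp and Upp1) held none.

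Of the kinases and transferases, Uck2 (uridine-cytidine kinase of dividing cells) had 4100.5 and 4085 in knockout libraries, against 2814 and 2944 in control libraries (log2 fold change 0.51, SE 0.032, adjusted p = 8.2e-05). Its relative Uck1 had 434 and 467 in knockout libraries, against 445 and 465 in control libraries (adjusted p = 0.826), and Uckl1 did not pass either (0.035, adjusted p = 0.635). The ratio of Uck2 to Uck1 counts was 9.44 and 8.75 in knockout libraries, against 6.32 and 6.33 in control libraries. Adk, the adenosine kinase, had 525 and 585 in knockout libraries, against 378 and 392 in control libraries (log2 fold change 0.52, SE 0.066, adjusted p = 0.00103). Smaller increases were called for Tk1, the thymidine kinase of S phase (0.35), and for Hprt and Aprt, which recover hypoxanthine with guanine and adenine (0.27 and 0.22). Dck, the deoxycytidine kinase, had 463 and 446 in knockout libraries, against 409.8 and 419.7 in control libraries, and did not pass (adjusted p = 0.0611). The calls of Tk1 and Aprt were lost with DESeq2 (adjusted p = 0.0956 and 0.0808). Tk1 also failed without knockout replicate 1 (0.0648) or 2 (0.06), Hprt without knockout replicate 2 (0.0562), and Aprt without control replicate 1 (0.0561) or 2 (0.0581).

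With blockade, Adk had 1484 and 1322 in blocked libraries, against 664 and 679.7 in untreated libraries (log2 fold change 1.06, SE 0.068, adjusted p = 1.13e-10), the largest increase among the salvage genes of that comparison. Dck had 1114 and 1100.0 in blocked libraries, against 755 and 761 in untreated libraries (log2 fold change 0.55, SE 0.063, adjusted p = 4.39e-07). Tk1 rose by 0.53, Hprt by 0.34 and Uck2 by 0.27. Uckl1, the uridine-cytidine kinase-like gene, fell and had 374 and 432 in blocked libraries, against 544 and 517 in untreated libraries (log2 fold change -0.40, SE 0.086, adjusted p = 0.000533). Uck1 (-0.029, adjusted p = 0.775) and Aprt (-0.069, adjusted p = 0.325) did not pass.

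Upp1, the uridine phosphorylase that splits uridine into uracil and ribose phosphate, showed the largest change of the 38 genes in both comparisons. It lies at chr11:9118103-9136170 on the plus strand of GRCm38. In the knockout experiment it had 32.5 and 39.2 in knockout libraries, against 202 and 212 in control libraries (log2 fold change -2.50, SE 0.12, adjusted p = 3.25e-05). By summed reads divided by the summed size factors this was 5.77-fold lower, with an exact 95% interval of 4.49 to 7.51 that covers counting error only. With blockade, 1 read was left in each blocked library, against 168 and 203 reads in untreated libraries. Scaled in the same way, the level was 200.6-fold lower, with an exact 95% interval of 55.1 to 1662 for counting error. The fitted log2 fold change of -6.62 (adjusted p = 8.77e-13) depends on the pseudocount. In that experiment Upp1 met the filter through the untreated libraries alone, where it is high.

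Pnp, the purine nucleoside phosphorylase, had 835 and 880.3 in knockout libraries, against 1027 and 1066 in control libraries (log2 fold change -0.29, SE 0.045, adjusted p = 0.0024). With blockade it had 391 and 351 in blocked libraries, against 393 and 381 in untreated libraries, and did not pass (adjusted p = 0.565). Its values are uncertain because of the close copy Pnp2, which had 196 and 191 in knockout libraries, against 235 and 259.5 in control libraries, while in the blockade experiment Pnp2 had 0.955 and 4.80 in blocked libraries, against 4.16 and 2.06 in untreated libraries. The annotated gene Gm49342 also shares 718 exon bases with Pnp on the same strand. It was listed at 0 in the blockade experiment and was not listed in the knockout experiment. How reads of Pnp, Pnp2 and Gm49342 were assigned in each experiment was not tested. Ada, the adenosine deaminase, had the lowest level of the 38 in each library of the knockout experiment by recovered reads per exon length, with scaled counts of 30.5 and 32.3 in knockout libraries, against 32.5 and 32.4 in control libraries (adjusted p = 0.803). With blockade Ada had 55.4 and 72.9 in blocked libraries, against 55.1 and 46.3 in untreated libraries, and missed the threshold (log2 fold change 0.32, SE 0.20, adjusted p = 0.173).

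Set side by side, de novo genes rose further than salvage genes in both comparisons by their medians. The median of the de novo genes exceeded that of the salvage genes by 0.42 on the log2 scale in the knockout and by 0.17 with blockade. Without Ada, Pnp and Upp1 among the salvage genes the difference was 0.31 and 0.14. With blockade it ranged from 0.19 to 0.28 when 1 library was left out, and the value of 0.28 came without blocked replicate B. The summed scaled counts of the de novo genes were 27611 and 27352 in knockout libraries, against 18943 and 19229 in control libraries. Those of the salvage genes were 10657 and 10959.7 in knockout libraries, against 9008 and 9159 in control libraries. The ratio of the sums was thus 2.59 and 2.50 in knockout libraries, against 2.10 in both control libraries, with no overlap. In the blockade experiment the de novo sum was 44926 and 45971 in blocked libraries, against 32195 and 31722 in untreated libraries. The salvage sum was 16088 and 16002 in blocked libraries, against 13377 and 13235 in untreated libraries. The ratio was 2.79 and 2.87 in blocked libraries, against 2.41 and 2.40 in untreated libraries. With 2 libraries a group, an exact two-sided permutation test cannot give a p below 0.333, so the ratio was not tested. The sums follow the genes with the most reads and are not corrected for gene length.

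**Figure D2:**
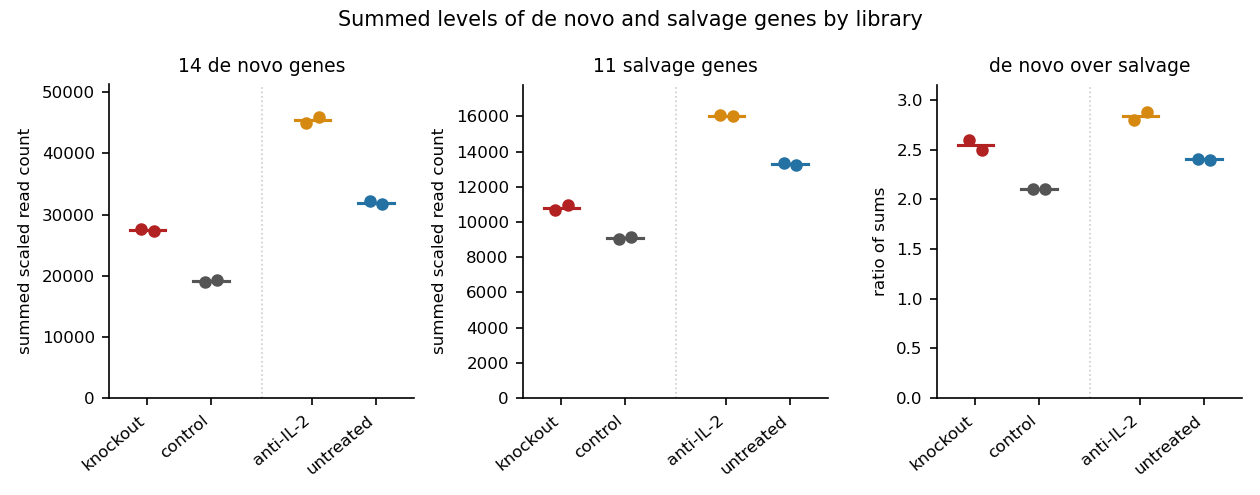
Summed scaled read count (y axis, from 0) of the 14 de novo genes, the 11 salvage genes and the ratio of the sums, in 3 panels, for each of the 8 libraries (points, with a line at the group mean), by group along the x axis, with knockout left of control and anti-IL-2 left of untreated. The de novo sums lie between 27352 and 27611 in knockout and between 18943 and 19229 in control libraries, and the salvage sums are closer between groups.

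PRPP, the activated ribose phosphate that both routes use, is made by Prps1 and Prps2, and both rose in both comparisons. Prps1 had 1346 and 1343 in knockout libraries, against 1088 and 1083 in control libraries (log2 fold change 0.31, SE 0.033, adjusted p = 0.000552), and with blockade it had 2068 and 2043 in blocked libraries, against 1552 and 1523 in untreated libraries (log2 fold change 0.42, SE 0.055, adjusted p = 2.18e-06). Prps2 had 1755 and 1632 in blocked libraries, against 1086 and 1008 in untreated libraries (log2 fold change 0.69, SE 0.063, adjusted p = 1.53e-08). In the knockout Prps2 had 714 and 669.5 in knockout libraries, against 572 and 598 in control libraries, an increase of 0.24 that was not called by DESeq2 (adjusted p = 0.176), nor without knockout replicate 1 (0.0833) or control replicate 1 (0.0676).

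All 5 deoxynucleotide and thymidylate genes rose in both comparisons, with a median log2 fold change of 0.81 in the knockout and 1.26 with blockade. Tyms, the thymidylate synthase, had 718 and 765 in knockout libraries, against 301 and 307 in control libraries (log2 fold change 1.28, SE 0.052, adjusted p = 2.17e-05). With blockade it had 1361 and 1450.0 in blocked libraries, against 439.6 and 409 in untreated libraries (log2 fold change 1.73, SE 0.070, adjusted p = 1.09e-13), a 3.31-fold higher level and the largest increase of the 38 genes there. Rrm2, the small subunit of ribonucleotide reductase, had 2189 and 2237 in knockout libraries, against 1070.1 and 1061 in control libraries (log2 fold change 1.05, SE 0.033, adjusted p = 1.01e-05), and 3922 and 3687 in blocked libraries, against 1445 and 1502 in untreated libraries (log2 fold change 1.37, SE 0.055, adjusted p = 9.61e-14). Rrm1, the large subunit, had 3187 and 3206 in knockout libraries, against 2143 and 2145 in control libraries (log2 fold change 0.58, SE 0.028, adjusted p = 3.19e-05), and 7457 and 7318 in blocked libraries, against 3139.7 and 3123 in untreated libraries (log2 fold change 1.24, SE 0.049, adjusted p = 7.02e-14). Dut, which removes dUTP, rose by 0.56 in the knockout and by 1.14 with blockade. Dtymk, the thymidylate kinase, rose by 0.81 and 1.26 in the same comparisons. No call of the 5 was lost under any alternative run.

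Other deoxynucleotide genes followed in number. Of 14 tested in each experiment, 9 rose (64.3%) and 1 fell (7.14%) in the knockout, against 32.9% and 28.2% of all genes tested. With blockade 11 rose (78.6%) and 0 fell, against 31.4% and 28.9% of all genes tested. Dctd, the dCMP deaminase that feeds Tyms, had 501 and 491 in knockout libraries, against 122 and 127 in control libraries (log2 fold change 1.99, SE 0.060, adjusted p = 9.18e-06), and rose by 0.92 with blockade. Dctpp1, a dCTP pyrophosphatase, rose by 0.88 and 1.00, and Nudt1, which clears oxidised purine nucleotides, by 0.97 and 1.37. Nudt5, an ADP-ribose pyrophosphatase, rose by 0.41 in the knockout.

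A list of 20 S phase genes moved in the same direction as these deoxynucleotide genes. In the knockout 18 of 20 rose (90.0%) and 0 fell, with a median of 0.60, against 32.9% and 28.2% of all genes tested. With blockade 20 of 20 rose, with a median of 1.01, against 31.4% of all genes tested. Mcm2, a subunit of the replicative helicase, had 2799.6 and 2845 in knockout libraries, against 1256 and 1303 in control libraries (1.14), and 5192 and 5450.1 in blocked libraries, against 2152 and 2113 in untreated libraries (1.32). Pola1, the catalytic subunit of DNA polymerase alpha, rose by 1.64 with blockade, and Pold1, that of polymerase delta, by 0.87 in the knockout. Among the others, Mcm5 (0.71) and Mcm7 (0.78) rose in the knockout and Mcm4 (1.02) and the DNA ligase gene Lig1 (1.28) with blockade. The part of S phase in the values of the nucleotide genes was not tested.

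**Figure D3:**
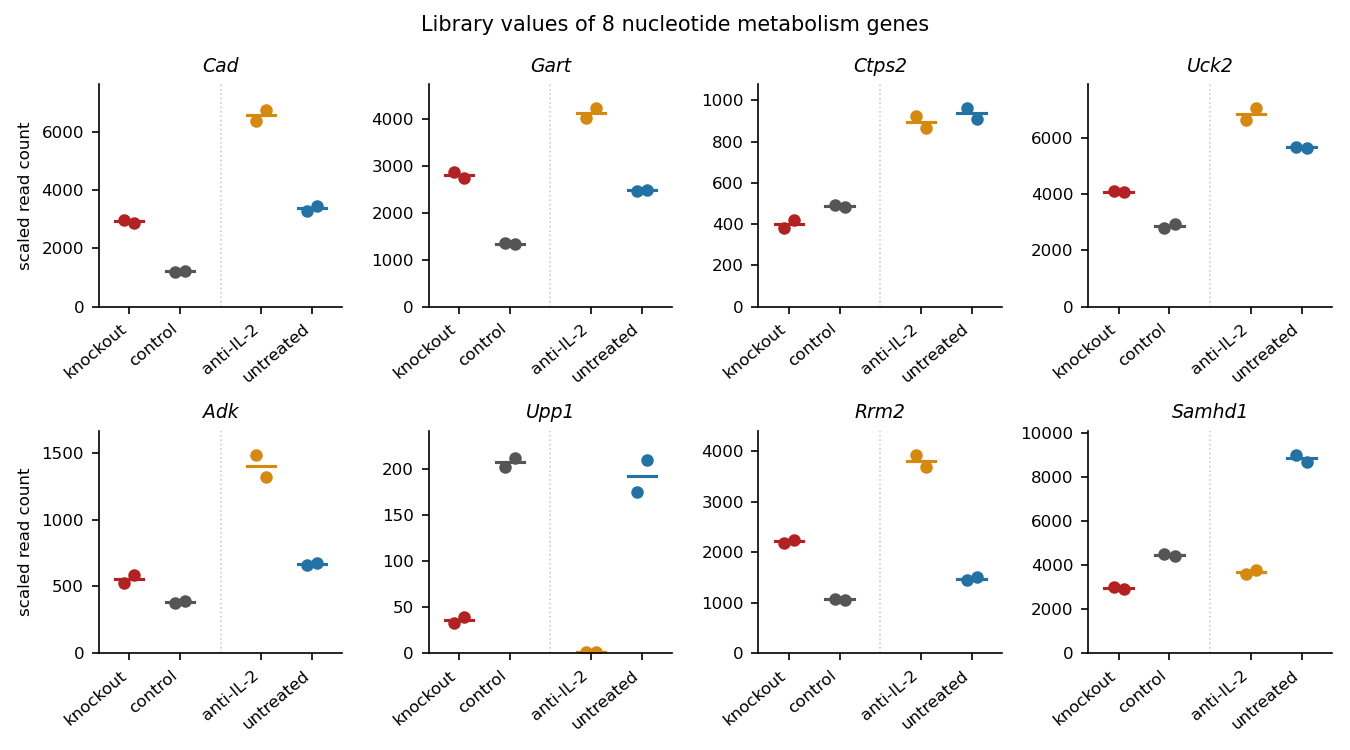
Scaled read count (y axis of each panel, from 0) of 8 genes in each of the 8 libraries (points), by group along the x axis, with knockout left of control and anti-IL-2 left of untreated; lines mark group means. The 8 genes are Cad, Gart, Ctps2, Uck2, Adk, Upp1, Rrm2 and Samhd1; Upp1 and Samhd1 sit lower in knockout than in control and lower in blocked than in untreated libraries, and the dotted line parts the 2 experiments, whose levels are not on 1 scale.

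Breakdown of deoxynucleotides is represented by Samhd1, the triphosphohydrolase that splits dNTPs, and it fell in both comparisons. It had 2985 and 2899.7 in knockout libraries, against 4480.1 and 4383 in control libraries (log2 fold change -0.59, SE 0.030, adjusted p = 3.77e-05), and 3577 and 3778 in blocked libraries, against 9000.1 and 8683 in untreated libraries (log2 fold change -1.27, SE 0.050, adjusted p = 8.5e-14). The ratio of Rrm2 to Samhd1 counts was 0.733 and 0.771 in knockout libraries, against 0.239 and 0.242 in control libraries, and 1.10 and 0.976 in blocked libraries, against 0.161 and 0.173 in untreated libraries. Nt5e, which encodes the surface 5′-nucleotidase CD73 that releases adenosine from AMP outside the cell, had 1589 and 1552 in blocked libraries, against 3032 and 2766 in untreated libraries (log2 fold change -0.88, SE 0.058, adjusted p = 1.32e-10). In the knockout Nt5e had 566 and 511 in knockout libraries, against 495 and 441 in control libraries, and missed the threshold (log2 fold change 0.20, adjusted p = 0.067).

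Of the other nucleotidases and base breakdown genes, 10 could be tested in the knockout, where 5 rose and 4 fell. Of all genes tested there, 32.9% rose and 28.2% fell. With blockade 5 of 9 rose (55.6%) and 2 fell (22.2%), against 31.4% and 28.9% of all genes tested. Xdh, the xanthine dehydrogenase that makes uric acid, fell in both, with 465 and 469.6 in knockout libraries, against 658 and 684 in control libraries (-0.52) and 547 and 602 in blocked libraries, against 1468 and 1486 in untreated libraries (-1.36). Upb1, the last enzyme of pyrimidine base breakdown, also fell in both (-1.85 and -2.30), at scaled counts of at most 22 in knockout and blocked libraries. Mtap, which recovers adenine from methylthioadenosine, rose in the knockout (0.70), as did the nucleotidase gene Nt5c (0.43). With blockade Nt5c3b (0.72) and Nt5c2 (0.30), of the same family, rose.

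The 4 nucleotide kinases, which turn mono- and diphosphates into triphosphates, all rose in the knockout, and 2 of 4 rose with blockade. Nme1, a nucleoside diphosphate kinase, had 1897 and 1899 in knockout libraries, against 1338 and 1325 in control libraries (log2 fold change 0.51, SE 0.031, adjusted p = 6.97e-05), and rose by 0.77 with blockade. Guk1, the guanylate kinase, rose by 0.62 in the knockout and 0.49 with blockade. Cmpk1, the UMP-CMP kinase, rose by 0.29 in the knockout, a call lost with DESeq2 (adjusted p = 0.0512) and without knockout replicate 1 (0.0783) or 2 (0.0768), and did not pass with blockade (0.10, adjusted p = 0.232). Nme2, a close relative beside Nme1, had 2683 and 2922 in knockout libraries, against 2562 and 2488 in control libraries (log2 fold change 0.15, SE 0.047, adjusted p = 0.0344). That call was lost with edgeR (adjusted p = 0.0666), with DESeq2 (0.2), under upper-quartile scaling (0.219), in a fit of all 8 libraries (0.142), without knockout replicate 2 (0.15) and without control replicate 1 (0.111) or 2 (0.187). In the blockade experiment Nme2 had 134 and 111 in blocked libraries, against 110.2 and 101 in untreated libraries (adjusted p = 0.228). The annotated readthrough gene Gm20390 shares 418 exon bases with Nme1 and 573 with Nme2 and was listed at 0 in both experiments. Levels of this pair were not compared between the experiments, since the annotation and counting behind each table are not given in the sources used here.

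Of the other kinases and interconversion genes, 18 could be tested in the knockout, where 7 rose (38.9%) and 4 fell (22.2%), against 32.9% and 28.2% of all genes tested. Of 17 tested with blockade, 7 rose (41.2%) and 3 fell (17.6%), against 31.4% and 28.9% of all genes tested. Adss, which makes the precursor of AMP from IMP, had 5568 and 5650.4 in knockout libraries, against 4134 and 4148 in control libraries (0.44). Ak3, a mitochondrial adenylate kinase, rose by 0.55, and Cmpk2, a mitochondrial kinase induced by interferon, fell by 1.74. Ak7, an adenylate kinase known from cilia, had 106 and 99.0 in knockout libraries and was listed at 0 in both control libraries, at least 33.8-fold higher against a floor of 3 reads in each. With blockade, Adssl1, the muscle-type relative of Adss, had 115 and 126 in blocked libraries, against 726 and 685 in untreated libraries (-2.55). Ampd3, an AMP deaminase, had 36.3 and 28.8 in blocked libraries, against 7.27 and 4.12 in untreated libraries (2.36), and Ak4, a mitochondrial adenylate kinase, rose by 0.92. Ampd3 met the filter through the blocked libraries alone, and Ak7 through the knockout libraries alone.

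The same 38 genes were then compared between the experiments by the difference of the 2 effects, taken in a fit of all 8 libraries. Each effect was measured in its own experiment against its own reference cells. A difference between knockout and blockade therefore cannot be told apart from one between the experiments. The effect of the knockout was higher than that of blockade for 12 of 38 genes and lower for 10, while 16 did not pass, and over all 12428 genes tested 24.7% were higher and 17.0% lower, 41.7% in either direction. The 5 deoxynucleotide and thymidylate genes all had a smaller increase in the knockout than with blockade. The difference of log2 fold changes, knockout minus blockade, is the quantity given from here on, and it was -0.66 (SE 0.051, adjusted p = 4.86e-07) for Rrm1 and -0.57 (SE 0.063, adjusted p = 1.49e-05) for Dut. It was -0.44 for Tyms, -0.44 for Dtymk and -0.31 for Rrm2.

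De novo genes leaned the other way, with 6 of 14 having the higher effect in the knockout, 1 the lower, and 7 not passing. The shares over all genes tested were 24.7% higher and 17.0% lower. The difference was 0.33 (SE 0.060, adjusted p = 0.000776) for Gart, 0.35 (SE 0.068, adjusted p = 0.00126) for Pfas and 0.32 (SE 0.065, adjusted p = 0.00173) for Cad, so these genes rose further in the knockout. Adsl (0.22) and Ctps (0.19) also passed in that direction. Impdh1 and Paics were called in opposite directions in the 2 comparisons, and their differences were 0.42 (SE 0.085, adjusted p = 0.00163) and -0.41 (SE 0.057, adjusted p = 0.000115).

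In salvage, 4 of 11 genes had the higher effect in the knockout, 2 the lower, and 5 did not pass. Of all genes tested, 24.7% had the higher effect in the knockout and 17.0% the lower. Adk (-0.54) and Dck (-0.41) rose further with blockade, and Uck2 (0.23) rose further in the knockout. Uckl1 differed by 0.43 (SE 0.11, adjusted p = 0.00838) and Aprt by 0.29 (SE 0.073, adjusted p = 0.00669), and neither passed in both comparisons. Both breakdown genes differed, Samhd1 by 0.67 (SE 0.057, adjusted p = 1.36e-06) and Nt5e by 1.08 (SE 0.098, adjusted p = 2.37e-06), since Samhd1 fell less in the knockout and Nt5e fell only with blockade among the called values. Prps2 (-0.45) and Nme1 (-0.26) had the larger increase with blockade. How reads of Nme1 and its relative Nme2 were counted in each experiment is not given in the sources used here. The part of counting in the Nme1 difference was not tested. The difference for Upp1 passed (4.12), but its size depends on the pseudocount because each blocked library held 1 read.

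**Figure D4:**
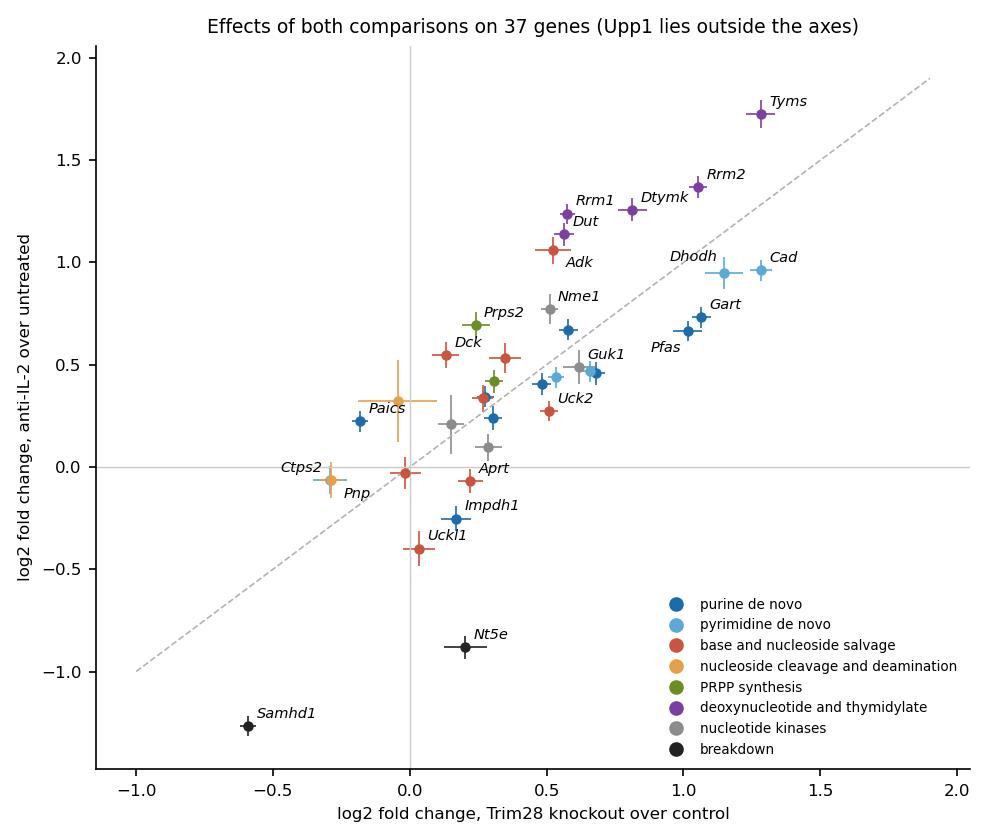
Log2 fold change in the knockout over control (x axis) and with anti-IL-2 over untreated (y axis) of scaled read count + 1 for 37 genes, with bars of 1 standard error and a dashed line of equal effects; Upp1 at -2.50 and -6.62 lies outside. The deoxynucleotide genes lie above the line, Cad, Gart and Pfas below it, and Nt5e at 0.20 and -0.88 far below it.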

How the data were processed

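PolyA RNA was sequenced in 8 libraries, 2 in each of 4 groups. The submitters' processing notes name mm10 as the build and, as tools, DESeq2, HISAT2 2.2.1, StringTie 2.1.4 and Trim Galore 0.4.4, while the read counter, annotation and use of strand are not given in the sources used here. The deposited signal per library is a gene read count divided by a size factor, scaled within each experiment. Dividing by the value of 1 read returned whole numbers for 100% of values (tolerance 0.001). The authors also deposited log2 fold changes with standard errors, coded as control or untreated over knockout or blocked, with a test statistic (a score) and p-values. Of these only the log2 fold changes and adjusted p-values were used, for the count credited to the authors' table. Samples of other series held 0 columns. Of the gene names listed for the knockout, 24 had been turned into dates, none of them a member.

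The test took in 15415 and 13978 genes, those whose value reached 10 in 2 or more libraries. This filter can be met by 1 group alone, as for Ak7 in the knockout and Upp1, Ampd3 and P2rx7 with blockade. It was also met by 1 group alone for Foxp3 and Klre1 in both comparisons. Such genes enter the test through the group where they are high. Log2 (value + 1) was fitted per experiment in R 4.3.3 by limma 3.58.1 with its trended moderation of variances, with Benjamini-Hochberg adjustment and a threshold of 0.05. Effects of both experiments were compared in a fit of 8 libraries over the 12428 genes that passed this filter in both tables, of 46556 names found in both. The script was run on simulated data with known changes and a simpler spread, which does not measure how many calls in these data are true. Within each group the 2 libraries differed by more than sampling noise (chi-square over degrees of freedom 1.32 to 3.87), so no pair was taken for repeat deposits of 1 library, although this does not show that they are independent replicates. Alternatives were edgeR 4.0.16 and DESeq2 1.42.0 on recovered reads, TMM and upper-quartile scaling, pseudocounts of 0.5 and 5, other filters, 1 fit of 8 libraries, a replicate block and leaving out each library.

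The members and lists were chosen with earlier results of these data known. All 38 members are named; of each other list, up to 4 genes per comparison with the smallest adjusted p among those called are named, with Trim28, Il2 and Il2ra as checks. Myc in the knockout, Pnp2, Gm49342, Gm20390, the marker genes, and values of a named gene in the other comparison are given outside this rule and were chosen after their values were seen. Some genes that stand in the counts of these lists are not reported here by name. Levels are given within each table alone, since the 2 were scaled separately. Positions come from the GENCODE annotation on GRCm38, and promoter windows from RefSeq on GRCm38.p6.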

Additional observations from a re-analysis of the deposited data

How the results depend on the processing

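Of 1025 log2 fold changes of single members under alternatives, 969 kept their direction and their side of the threshold, 43 kept the direction but no longer passed, 6 newly passed and 7 changed sign. In the knockout 26 members, and with blockade 28, kept both under every alternative run. The 7 sign changes were in values that had not passed. With 1 library left out, the log2 fold change in the knockout ranged from -0.068 to 0.036 for Uck1 and from -0.015 to 0.084 for Uckl1, and that with blockade from -0.0072 to 0.20 for Cmpk1, from -0.14 to 0.017 for Pnp and from -0.088 to 0.030 for Uck1. Upper-quartile scaling gave -0.044 for Uckl1 in the knockout. The count of members that rose in the knockout lay between 22 and 29 under all alternatives, against 28. The count that fell in the knockout lay between 3 and 5 when 1 library was left out, and the count that fell with blockade was 3 without a filter, against 5. Over all genes, 2846 rose and 2660 fell in the knockout by DESeq2, against 5065 and 4344. When 1 library was left out, 3212 to 4103 rose and 2787 to 3193 fell. Upper-quartile scaling turned these counts to 4199 higher and 5227 lower in the knockout, and to 3822 higher and 4498 lower with blockade, against 4391 and 4033. The de novo median exceeded the salvage median in the knockout by 0.31 without Ada, Pnp and Upp1 and by 0.38 with Prps1 and Prps2 counted as de novo, against 0.42, and with blockade by 0.19 to 0.28 when 1 library was left out, against 0.17. Members whose 2 effects differed numbered 19 to 25 under the alternatives, against 22. The cause of these shifts was not tested.

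In the first experiment knockout and control share replicate numbers. With a replicate block 29 members rose and 5 fell, and over all genes 4881 rose and 4197 fell; the added call was Nt5e (adjusted p = 0.0226). Deviations of same-numbered libraries from their group means had r = 0.013 across 15415 genes, which are not independent replicates, so the numbers were not taken to pair the libraries. Columns of the blocked libraries carry no numbers. No paired analysis was possible for blockade because those columns cannot be matched to a number.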

Other observations

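Of genes that move nucleosides or handle extracellular purines, 12 could be tested in the knockout, where 4 rose (33.3%) and 5 fell (41.7%), against 32.9% and 28.2% of all genes tested. With blockade 8 of 13 rose (61.5%) and 3 fell (23.1%), against 31.4% and 28.9% of all genes tested. Slc29a2, an equilibrative nucleoside transporter of the cell surface, had 253 and 280.4 in knockout libraries, against 106 and 106 in control libraries (log2 fold change 1.31, SE 0.080, adjusted p = 6.89e-05), and 701 and 827 in blocked libraries, against 350.2 and 358 in untreated libraries (log2 fold change 1.10, SE 0.085, adjusted p = 1.47e-09). Entpd6, a nucleoside diphosphatase, rose by 1.16 in the knockout and by 0.71 with blockade. Slc29a3, the lysosomal relative of Slc29a2, rose by 0.59 in the knockout, and Dpp4 (CD26), which binds adenosine deaminase in humans, had a log2 fold change of -0.62 there. With blockade P2rx7, the ATP-gated channel, had 26.7 and 30.7 in blocked libraries, against 5.20 and 2.06 in untreated libraries (log2 fold change 2.77, SE 0.43, adjusted p = 1.6e-05), and Adora2a, an adenosine receptor, fell (-0.37). P2rx7 met the filter through the blocked libraries alone, where it is high, so its call is no independent support.

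Levels per exon length were recovered reads scaled to exon length and library total, ranked within each experiment alone. In the knockout experiment Nme2 had the highest level in each library, between 158 and 189, and Hprt lay between 103 and 131. Paics lay between 64.4 and 73.4, and Ada, with the lowest level of the 38 genes in each library, between 1.16 and 1.22. In the blockade experiment Hprt had the highest level in each library, between 111 and 162. Paics lay between 63.1 and 80.8, and Nme2 between 5.04 and 7.01. Ada lay between 1.35 and 2.22 in the blockade experiment and was lowest in both untreated libraries, while Upp1, at 0.030 in each, was lowest in both blocked libraries.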
